A study of Mus musculus with 6 samples.

Results

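The 49 genes described here encode the proteins that hold intestinal epithelial cells to each other and to the basement membrane, together with the keratins of their cytoskeleton. They were taken by name from the 7120 genes in the deposited table: claudins, cadherins, keratins, plakophilins, zonula occludens scaffolds, desmogleins, desmocollins, integrins and laminins with a number in the symbol, and single genes such as Ocln, Epcam, Dsp, Jup, F11r, Cgn and Vil1. By class they are 7 desmosome, 11 tight junction, 9 adherens junction, 7 integrin, 5 laminin and 8 keratin genes, with Epcam and Vil1 on their own. RNA came from laser-microdissected crypts of the ileum of C57BL/6 mice, 3 months old. There were 3 wild-type (WT) libraries and 3 libraries from Tl1a-transgenic (Tl1a-tg) mice, which carry a transgene for the cytokine TL1A. The labels used here do not give the promoter of the transgene or say whether each library came from its own mouse, so any spread between libraries may be technical.

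Tight junctions seal the space between neighbouring epithelial cells, with claudins setting which ions pass. Adherens junctions and desmosomes below them join the cells mechanically, through cadherins tied by catenins to actin and by plakins to keratin filaments. At the base of the cell, integrins bind laminins of the basement membrane. Simple epithelia such as the gut build their filaments from pairs of a type I keratin (Krt18, Krt19) and a type II keratin (Krt8), and neither partner forms a filament alone.

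The deposited values are not independent measurements of the 6 libraries. Within a genotype, each gene had the same value in every library apart from 1 factor per library. Krt8, for example, was listed at 258, 281 and 199 in Tl1a-tg replicates 1 to 3 and at 279.8, 124 and 305 in WT replicates 1 to 3, and every other gene followed the same proportions. The values below are therefore 1 fitted mean per genotype, in reads per library at a common depth and without an SD. The library sums of these values ran from 314186 to 774249, and the depth in reads is unknown. Standard errors, intervals and p-values are those of the authors' deposited table (DESeq2), on the log2 scale of Tl1a-tg over WT. They may rest on further libraries, because 7 of the 49 genes had no reads in either genotype and still had a deposited mean over all libraries above 0, up to 2.81 for Cdh12.

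No member passed the authors' test. An adjusted p-value was deposited for 20 of the 49 genes, and 0 of the 20 lay below 0.05 (DESeq2), where 3.67% of the 1662 genes with an adjusted p-value did. The smallest was 0.23, shared by Tjp3 and Krt18. At an unadjusted DESeq2 p below 0.05 there were 2 of 25 genes, both higher in Tl1a-tg. Over all genes with a p-value the share was 14.6%, and 10.7% were higher in Tl1a-tg. These shares do not compare like with like. Of the 25 members, 16 had a fitted mean of at least 10 reads in each genotype, against 828 of all 2580 genes with a p-value. Every gene at that level had an interval that included 0, so none of them lay below 0.05. The lower shares of the members therefore cannot be read as a property of junction genes. For the other 24 members the authors' deposited table gives no p-value and no reason for it.

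A fitted mean of at least 10 reads in each genotype was found for 23 of the 49 members (46.9%), against 19.4% of all 7120 genes, and such genes are called measured below. Of the 23, the log2 fold change was positive for 13 and negative for 10, with a median of 0.20. Over all 1379 measured genes the median was -0.38. Relative to that median, 14 lay above and 9 below, and the gene that changed side was Tjp1. All 23 intervals included 0, as did those of all 1379 measured genes. The deposited standard errors of the 23 members had a median of 3.74 on the log2 scale. The log2 fold changes of all measured genes ran from -5.10 to 4.58, and even these extremes were not detectable. Among the 23 members the largest in size was 3.46, for Vil1. Intervals that include 0 therefore do not exclude large differences. For 8 of the 23 the dispersion behind the standard error lay at the upper limit of the fit, and the interval then follows from that limit and not from a measured spread.

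**Figure D1:**
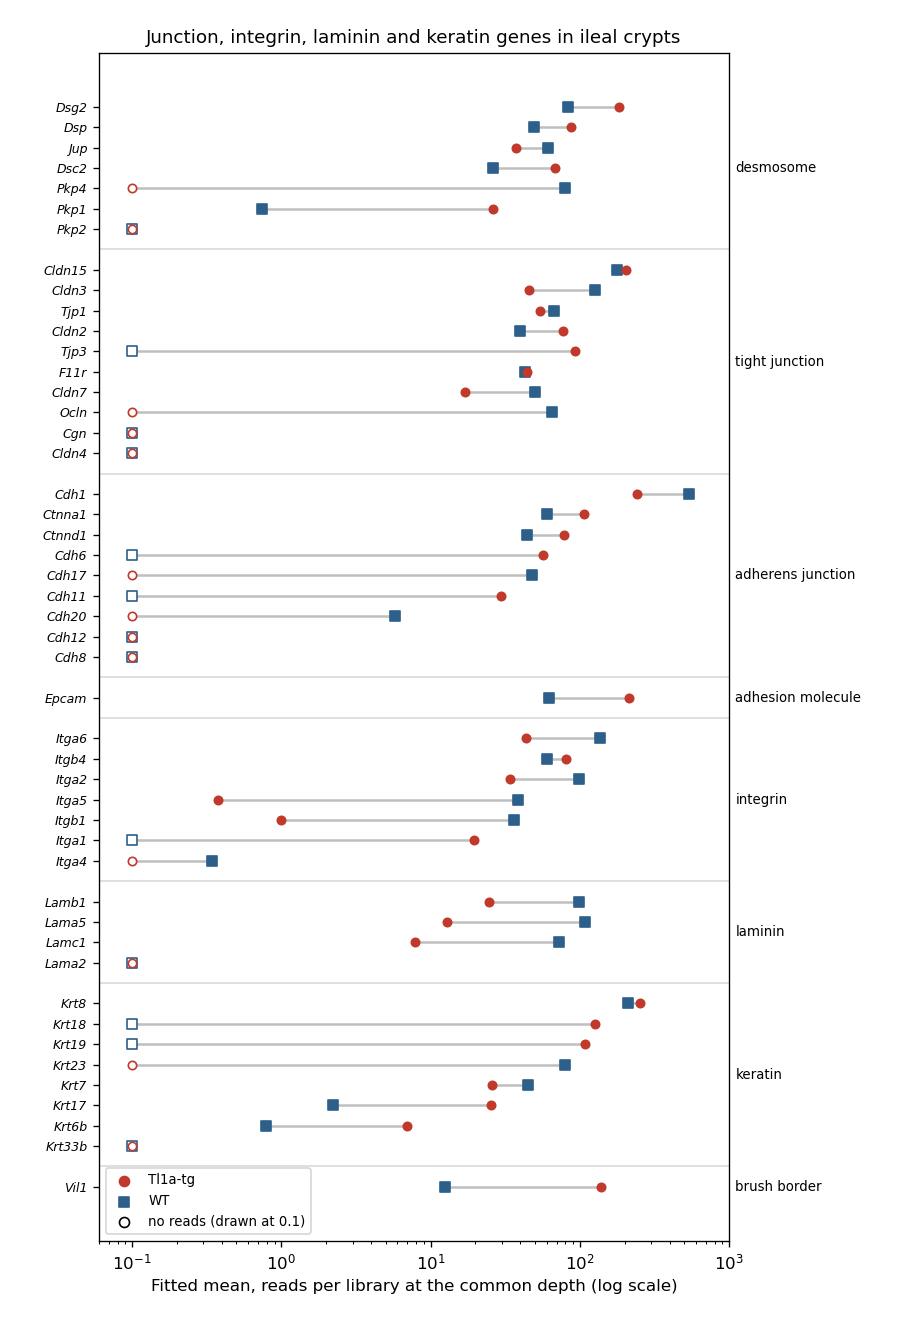
Fitted mean of each of 47 of the 49 genes in Tl1a-tg (red circles) and WT (blue squares), as depth-adjusted reads per library on a log axis, by class; open symbols drawn at 0.1 stand for a genotype without reads. Cdh1 had the highest mean, 242 in Tl1a-tg crypts and 538 in WT, and long grey lines mark genes such as Krt18, Ocln and Tjp3 with reads in 1 genotype.

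**Figure D2:**
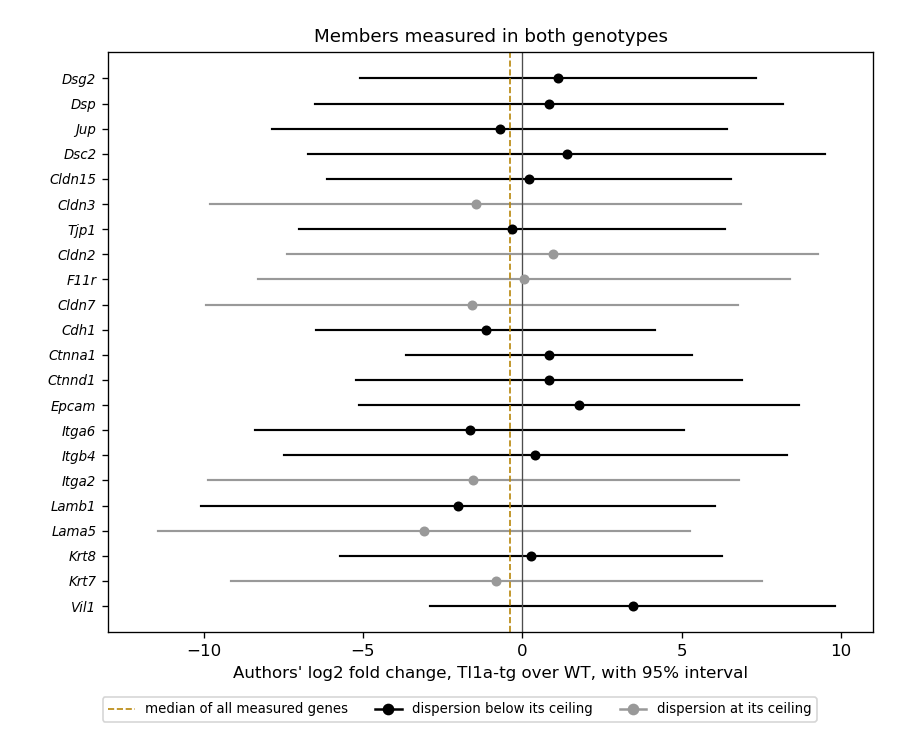
Log2 fold changes (Tl1a-tg against WT) and 95% intervals from the authors' deposited table for 22 of the 23 measured members. All intervals cross 0; grey marks the 7 genes drawn whose dispersion lay at its upper limit, and the dashed line the median of all measured genes at -0.38.

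Genes of gut epithelium were read in both genotypes, though not every crypt marker was. Cdh1, the E-cadherin of epithelial adherens junctions, had a fitted mean of 242 reads in Tl1a-tg crypts and 538 in WT. Krt8 had 255 and 209.5, and Epcam, an adhesion molecule found across the gut epithelium, 213 and 62.2. All 9 crypt markers in the list used here (Lgr5, Olfm4, Lyz1, Muc2, Epcam, Cdh1, Krt8, Krt18 and Krt19) were in the table, 6 of them measured. Lgr5, the marker of crypt stem cells, had 131 reads in Tl1a-tg crypts and 0.342 in WT, the value of 1 read in 1 library (adjusted p = 0.23 by DESeq2), and Krt18 and Krt19 had no reads or a value near 0 in WT. Reads per gene grow with transcript length, so levels of different genes were compared as fitted means per kb of the longest protein-coding transcript, which assumes even coverage along it. Ordered by the average of both genotypes on that scale, Krt8 stood first of the 49 genes with 130.2 in Tl1a-tg crypts and 107 in WT. Cldn15 followed with 108 and 92.7, and Cdh1 with 54.7 and 122. Next came Cldn3 (36.5 and 100.4) and Epcam (104 and 30.5). The order differed within each genotype: in WT Cdh1 was above Krt8, and in Tl1a-tg crypts Epcam, Krt18 (88.1) and Krt19 (68.4) were above Cdh1. No neighbours in the order were tested, because the fitted means carry no spread.

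Keratin partners had unequal reads. The type II keratin Krt8 had similar fitted means in both genotypes, with a log2 fold change of 0.28 in the authors' deposited table (95% interval -5.71 to 6.27). Its partner Krt18 had 127 reads in Tl1a-tg crypts and none in WT, as read from its fitted means. The authors' deposited table lists Krt18 with a log2 fold change of 9.49 (SE 3.87, adjusted p = 0.23 by DESeq2), whose size depends on how the fit treats a genotype that has no reads. Krt19, the other main type I keratin of the gut, had 108 reads in Tl1a-tg crypts and a fitted mean near 0 in WT. Its deposited log2 fold change of 21.70 has no p-value and shrank to 0.19 under the authors' apeglm shrinkage. WT instead had reads for Krt23, another type I keratin, with 79.9 against none in Tl1a-tg. Krt17, a type I keratin known from stressed skin, had 25.4 in Tl1a-tg crypts and 2.21 in WT. Reads in 1 genotype alone were thus found for 3 of the 8 keratins (37.5%), and for 47.8% of all genes. Among all genes with an average of both fitted means between 30 and 100 reads, as for Krt18, Krt19 and Krt23, the share was 41.8%.

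Summed over the 5 type I keratins, the fitted means were 260.2 reads in Tl1a-tg crypts and 82.4 in WT, whereas the 3 type II keratins summed to 288 and 255. In WT, Krt23 made up nearly all of the type I sum. The other type II keratins were Krt7, of ductal and some gut epithelia, with 25.7 and 45.2, and Krt6b, of stratified epithelia, with 6.97 and 0.784. Krt33b, a hair keratin, had no reads in either genotype. Keratin genes are paralogs, so reads that match several of them can be split between genes. That split was not tested.

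Krt8 and Krt18 are neighbours on chromosome 15, with 23873 bases between them in the RefSeq annotation of GRCm38.p6. Their promoter windows are shown because the pair is co-expressed in simple epithelia and had unequal reads here. Each window runs from 250 bases before the annotated start to 50 bases from it, 5′ to 3′ on the gene's strand. Krt8 lies at chr15:102004293-102004592 on the minus strand and Krt18 at chr15:102027966-102028265 on the plus strand. Capitals mark matches to the TATA box TATAAA on either strand.
Krt8: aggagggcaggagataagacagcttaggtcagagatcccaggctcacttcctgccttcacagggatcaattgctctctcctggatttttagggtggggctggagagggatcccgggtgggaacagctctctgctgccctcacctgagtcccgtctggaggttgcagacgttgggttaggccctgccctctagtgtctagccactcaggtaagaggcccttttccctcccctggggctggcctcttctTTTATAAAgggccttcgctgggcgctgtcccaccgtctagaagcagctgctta
Krt18: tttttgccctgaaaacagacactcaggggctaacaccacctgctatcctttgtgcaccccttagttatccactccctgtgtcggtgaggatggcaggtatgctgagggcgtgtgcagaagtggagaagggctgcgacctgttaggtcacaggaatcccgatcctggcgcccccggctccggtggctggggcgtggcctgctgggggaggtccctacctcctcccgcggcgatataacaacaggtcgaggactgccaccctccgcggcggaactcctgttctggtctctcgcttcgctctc
The Krt8 window held 2 overlapping matches to TATAAA, 1 on each strand, spanning the annotated start, and the Krt18 window held none. TATAAA occurred in 13.6% of the 32851 RefSeq promoter windows of the same length. The GC box GGGCGG occurred in neither window on either strand and in 35.7% of all windows. These matches describe letters in a window and do not bear on the read counts.

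**Figure D3:**
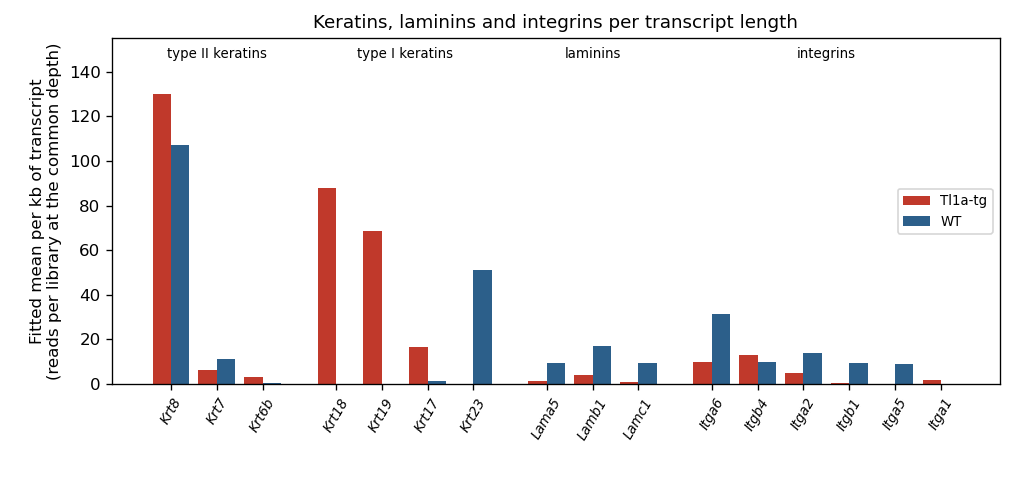
Fitted mean per kb of transcript (reads per library at the common depth) for keratins, laminins and integrins in Tl1a-tg (red) and WT (blue). Krt8 bars are similar in the genotypes at 130.2 and 107, Krt18 and Krt19 bars appear in Tl1a-tg crypts and the Krt23 bar in WT, and Lama5, Lamb1 and Lamc1 bars are higher in WT.

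The laminin chains described here had the higher fitted mean in WT or no reads in either genotype. Lama5, Lamb1 and Lamc1 encode the chains of the main laminin trimer of the mature gut basement membrane. Lama5 had 12.9 reads in Tl1a-tg crypts and 109 in WT, Lamb1 24.5 and 99.2, and Lamc1 7.88 and 72.1. The authors' deposited log2 fold changes were -3.08 (SE 4.25), -2.02 (SE 4.11) and -3.19 (SE 4.26). Of the 3 genes, Lamb1 alone has a p-value (adjusted p = 0.999 by DESeq2). Lama2, the laminin chain best known from muscle, had no reads in either. Other basement membrane genes were Hspg2, which encodes perlecan, with 56.6 and 144, and the laminin receptor Dag1, with 178 and 89.4.

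Of the 5 integrin genes with reads in both genotypes, Itga2, Itga5, Itga6 and Itgb1 had the higher fitted mean in WT and Itgb4 in Tl1a-tg. Itga6, Itgb1 and Itgb4 have an adjusted p-value and did not pass, and Itga2 and Itga5 have no p-value. Itga6 and Itgb4 form the hemidesmosome receptor for laminin. Itga6 had 43.4 reads in Tl1a-tg crypts and 136 in WT, and Itgb4 had 80.3 and 60.7. Their intervals were wide, -8.38 to 5.09 for Itga6 and -7.48 to 8.29 for Itgb4. Itgb1, the shared partner of the collagen, fibronectin and laminin receptors, had 0.996 and 36.2 (log2 fold change -5.18, SE 4.02, adjusted p = 0.557 by DESeq2).

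Alpha chains that pair with Itgb1 did not share 1 direction. Itga2, a collagen receptor chain, had 33.9 in Tl1a-tg crypts and 98.6 in WT. Itga5, the fibronectin receptor chain, had 0.375 and 38.5, and the Tl1a-tg value is what the fit gives for 1 read in 1 library. Itga1, another collagen receptor chain, had 19.7 in Tl1a-tg crypts and none in WT (adjusted p = 0.386 by DESeq2). Itga4, an alpha chain of leukocytes, had no reads in Tl1a-tg crypts and 0.342 in WT, again the value of 1 read in 1 library. Of 12 leukocyte markers 3 were in the table, with summed fitted means of 0.568 in Tl1a-tg crypts and 129 in WT, nearly all of it from the T cell gene Cd8b1. Itgam and Lyz2 were each below 1 in both genotypes. Their part in the integrin values was not tested. In bulk RNA, fewer cells of a type and less RNA per cell cannot be told apart.

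Genes that link integrins to actin were counted from a separate list. Of the 11 genes found, 4 were measured, and 0 of the 7 with an adjusted p-value passed, against 3.67% of all such genes. The sign of the 4 measured genes was positive for 3 and negative for Src, where it was positive for 512 of all 1379 measured genes. Over all 11 genes it was positive for 8 and negative for 3. Each of the 11 had an average of both fitted means of at least 10. Of all 4538 genes at that level, 2521 were positive, and these differences were not tested. Tln1, which encodes the integrin activator talin, had 121 and 46.4, Actn1 131 and 32.3, Pxn 84.5 and 60.9, and Src 30.7 and 141. Ilk, integrin-linked kinase, had 140.5 reads in Tl1a-tg crypts and none in WT (adjusted p = 0.23 by DESeq2 in the authors' deposited table). Fermt1, which encodes the epithelial kindlin, had 103 and 0.264, and Bcar1 100.4 and 0.342, with unadjusted DESeq2 p of 0.0511 and 0.0534. Actn4, an actin crosslinker like Actn1, had 37.9 and 2.64 (adjusted p = 0.688 by DESeq2). In the other direction, Parva had no reads in Tl1a-tg crypts and 58.7 in WT, and Zyx had 1.26 and 68.7, both without a p-value. Of the plakins and other hemidesmosome genes, 5 were in the table, and Plec alone has an adjusted p-value (0.999 by DESeq2). Plec, which ties keratins to integrins, had 77.2 and 164, and Perp, a desmosomal membrane protein, no reads in Tl1a-tg crypts and 35.2 in WT. The other 3 had the higher fitted mean in Tl1a-tg, with 27.2 and 0.999 for the integrin-binding tetraspanin Cd151, 28.7 and 0.342 for the hemidesmosomal plakin Dst, and 14.5 and 0.264 for periplakin, Ppl.

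Desmosome genes were read in both genotypes at their core. Dsg2 and Dsc2 are the desmosomal cadherins of simple epithelia. Dsg2 had 182 reads in Tl1a-tg crypts and 83.6 in WT, and Dsc2 68.3 and 26.1. Dsp, the plakin that binds keratin filaments, had 87.4 and 49.0, whereas Jup, which encodes plakoglobin, had 37.3 and 60.9. The authors' log2 fold changes were 1.13, 1.39, 0.83 and -0.71, with standard errors of 3.17 to 4.14. Plakophilins, the armadillo proteins between cadherins and Dsp, had reads mainly in 1 genotype. Pkp4 had 80.0 reads in WT and none in Tl1a-tg, Pkp1 26.0 in Tl1a-tg crypts and 0.737 in WT, and Pkp2, the plakophilin of simple epithelia and heart, none in either. None of the 3 plakophilins has a deposited p-value.

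Adherens junction genes were led by Cdh1, whose log2 fold change in the authors' deposited table was -1.15 (95% interval -6.47 to 4.16). Its cytoplasmic partners had the higher fitted mean in Tl1a-tg, and neither passed. Ctnna1, the alpha-catenin that binds actin, had 107 and 60.1, and Ctnnd1, the p120 catenin that keeps cadherin at the surface, 78.0 and 44.0. Ctnna1 had the smallest standard error of the 49 genes, 2.28, for a log2 fold change of 0.83 (95% interval -3.64 to 5.31). Cdh17, the liver-intestine cadherin, had 47.7 reads in WT and none in Tl1a-tg. Cdh6 and Cdh11, cadherins best known from kidney and mesenchyme, had 56.8 and 29.7 reads in Tl1a-tg crypts and none in WT. Cdh17, Cdh6 and Cdh11 have no deposited p-value.

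Stromal markers were also unequal. Of 9 fibroblast and stromal markers 4 were in the table, with summed fitted means of 200.05 in Tl1a-tg crypts and 54.6 in WT. Col1a1 had 60.5 and a value near 0, Fn1 133 and 50.5, Vim 7.08 and 4.06, and Dcn no reads in either genotype. Their part in the values of Cdh11 and of the laminins was not tested. Acta2, the 1 smooth muscle marker of 5 in the table, had no reads in either genotype, and of 5 endothelial markers 0 were found in the table used here.

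The neural cadherins Cdh8 and Cdh12 had no reads in either genotype. Cdh20 had 5.75 in WT and none in Tl1a-tg (adjusted p = 0.723 by DESeq2), yet the authors' deposited table gives it a mean of 50.6 over all libraries modelled. That is 17.0 times the average of its 2 fitted means, where the median ratio of the 49 genes was 0.211. The test of Cdh20 may therefore rest on reads outside these 6 libraries.

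Most measured tight junction genes had fitted means within 2-fold of each other, as had most measured genes, with intervals too wide to show equality. The measured genes leave out Tjp3 and Ocln, which had reads in 1 genotype only. Cldn15 and Cldn2 form cation pores of the small intestine. Cldn15 had 205 reads in Tl1a-tg crypts and 176 in WT, and Cldn2, typical of crypts, 77.4 and 40.0. Cldn3, a sealing claudin, had 46.0 and 126, and Cldn7 17.0 and 50.5, both with the higher fitted mean in WT, while Cldn4 had no reads in either genotype. F11r, which encodes a junctional adhesion molecule, had 44.4 and 42.8, the closest pair among the measured members (log2 fold change 0.05, 95% interval -8.28 to 8.38). Of the 7 measured tight junction genes, 5 had fitted means within 2-fold of each other, as had 12 of the 23 measured members (52.2%) and 54.7% of all measured genes.

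Tjp1 and Tjp3 encode zonula occludens scaffolds, which tie claudins to actin. Tjp1 had 53.8 reads in Tl1a-tg crypts and 67.3 in WT. Tjp3 had 93.0 reads in Tl1a-tg crypts and none in WT (log2 fold change 9.05, SE 3.62, adjusted p = 0.23 by DESeq2 in the authors' deposited table). Ocln, which encodes occludin, had the reverse, no reads in Tl1a-tg crypts and 65.3 in WT, without a p-value. Cgn, the cytoplasmic plaque protein cingulin, had no reads in either.

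Of other junction genes fixed as a list, 14 were in the table and 3 were measured, and 0 of the 6 with an adjusted p-value passed. Of 7 with a p-value, 2 had an unadjusted p below 0.05, Ctnnb1 and Vcl. Vcl, which encodes vinculin at cell junctions, had no reads in Tl1a-tg crypts and 114 in WT (adjusted p = 0.23 by DESeq2). Ctnnb1, the beta-catenin that joins Cdh1 to Ctnna1, had 239.8 reads in Tl1a-tg crypts and 0.342 in WT, opposite in direction to Cdh1 (adjusted p = 0.0727 by DESeq2). Mllt4, the actin-binding afadin, had 138 and 59.9, and Pvrl1, a nectin that binds it, 28.1 and 139. The polarity kinase Prkci had 16.6 and 211, and the related Prkcz a value near 0 and 112. The others with a p-value were the nectin Pvrl2 with 32.3 reads in Tl1a-tg crypts and none in WT, Ybx3, whose product binds that of Tjp1, with 25.4 and 0.545, and the polarity gene Pard6b with 0.621 and 8.26.

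Vil1, which encodes the actin-bundling villin of the brush border, had 138 reads in Tl1a-tg crypts and 12.6 in WT, the largest log2 fold change of the 23 measured members at 3.46 (95% interval -2.89 to 9.81, adjusted p = 0.764 by DESeq2). Of the 11 other brush border genes listed, 5 were measured. Of the 7 with an adjusted p-value 0 passed, against 3.67% of all such genes. All 5 measured genes had a negative log2 fold change, as had 867 of all 1379 measured genes, and relative to the median of those Eps8 lay above and the other 4 below. Cdhr5 and Cdhr2, the cadherins that link microvilli, had 306 and 541, and 69.1 and 131. The microvillar motor Myo1d had 72.5 and 259, Myo1a 21.5 and 30.7, and the actin regulator Eps8 45.3 and 50.2. Ush1c, which anchors the microvillar cadherins, had no reads in Tl1a-tg crypts and 86.8 in WT, and the motor Myo7b had 4.55 and 240.3 (adjusted p = 0.345 by DESeq2). Espn and Pls1, actin bundlers like Vil1, shared its direction, with 72.6 in Tl1a-tg crypts and none in WT for Espn and 63.6 and 0.342 for Pls1. Ezr, which encodes the membrane linker ezrin, had 52.6 and 2.77. Of 9 villus enterocyte markers 4 were in the table, with summed fitted means of 109.97 in Tl1a-tg crypts and 45.7 in WT, mostly from Anpep. Their part in the brush border values was not tested.

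Reads in 1 genotype alone were found for 13 of the 49 members (26.5%) and for 47.8% of all genes. Of the 49, 29 had reads in both genotypes (59.2%), 7 in Tl1a-tg only, 6 in WT only and 7 in neither. Over all 7120 genes 34.4% had reads in both, 31.4% in Tl1a-tg only, 16.3% in WT only and 17.9% in neither. The shares moved with the level of the genes, and their difference was not tested. All 5 members with an average of both fitted means of at least 100 reads had reads in both genotypes, as had 97.8% of the 503 such genes in the table. Between 30 and 100 reads it was 19 of 25 members and 58.2% of 2020 genes, and between 10 and 30 reads 4 of 8 members and 24.7% of 2015 genes. Below 10 reads it was 1 of 11 members (9.09%) and 10.9% of 2582 genes. How many of the 3 libraries of a genotype held the reads of a gene is not known.

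**Figure D4:**
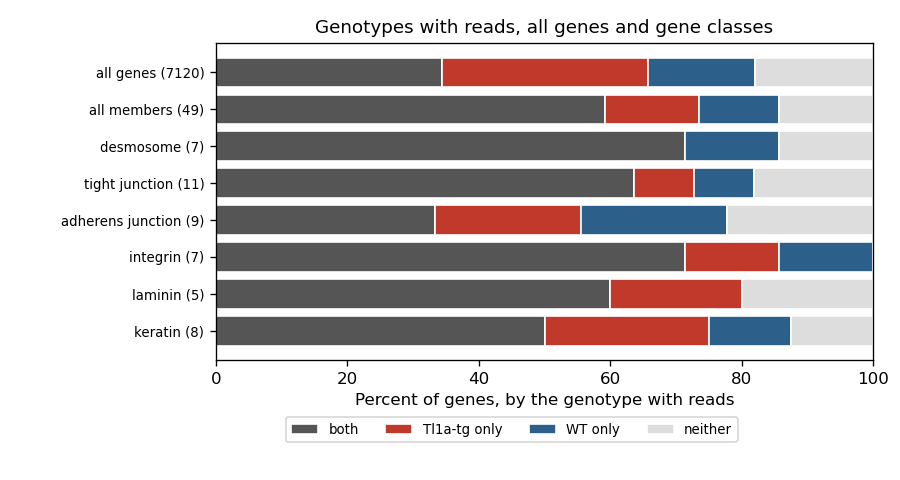
Percent of genes with reads in both genotypes, in Tl1a-tg only, in WT only or in neither, for all 7120 genes, the 49 members and 6 classes, with the number of genes in brackets. Reads in both genotypes were found for 59.2% of the members and 34.4% of all genes.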

How the data were processed

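The tools named, per the submitters' processing notes and without a stated role, are DESeq2, RSEM 1.2.15, Bowtie2 2.1.0, Trimmomatic and FastQC. The genome build is not given in the sources used here. The deposited signal, named normalized counts per the file headers, proved to be 1 fitted mean per gene and genotype times 1 factor per library (largest relative deviation 1.07e-14). It holds no spread between libraries, so no test of replicates could be fitted, and the authors' deposited p-values, log2 fold changes, standard errors and Wald scores were used, with missing values kept. The sizes shrunken by apeglm are also the authors' deposited log2 values. Genes were called at an adjusted p below 0.05.

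Fitted means were divided by library factors with a geometric mean of 1 (0.591 to 1.46). A genotype was taken as without reads when its fitted mean, before that division and as a geometric mean over its libraries, lay within 1% of 0.184 or below 0.01. The former is the value at which a fit with a lowest mean of 0.5 settles when every count is 0, and 0.358 is its value for 1 read in 1 library. This reading is inferred from the values. Dispersions were solved from the standard errors, and 76.4% of all genes lay at the limit of 13.0. Lengths came from GENCODE M21 and promoters from RefSeq, and all 49 genes were matched. Protein sequences of the most abundant members, planned at first, were not used here, and the promoters of Krt8 and Krt18 were chosen in their place after their values were seen.

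The members, lists and tests were chosen with earlier results of these data known. Members are named, except that the values of a few are not reported here; counts and medians cover all 49. Genes of other lists are named where they had a deposited p-value or an average of both fitted means of at least 50, and a few others were picked after their values were seen. The adjustment, Wald test and dispersion solver were tested on simulated data, with Python 3.11.15, numpy 2.4.6, pandas 2.3.3 and scipy 1.17.1.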

Additional observations from a re-analysis of the deposited data

How the results depend on the processing

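The count of members below an adjusted p of 0.05 was 0. It stayed 0 when p-values were adjusted over every gene with a p-value, when means near 0 were placed at the value of other genes without reads, and when the median of all measured genes was set to 0. The setting for means near 0 could not change the p-value of a member, because Krt19, the only member with such a mean, has none. The count of members below an adjusted p of 0.05 is thus not checked by that setting. The count was 2 at an unadjusted DESeq2 p below 0.05. The median log2 fold change of the measured members, 0.20, ranged from 0.02 (shrunken) to 0.58 (median of all measured genes set to 0) under 6 alternatives. It stayed positive, but not every alternative could have changed its sign. Shrinkage and adding 1 to the fitted means kept the sign of each measured member. Setting the negative median of all measured genes to 0 could only raise the value. The sign is thus checked only by the settings that changed the filter. Its meaning depends on the filter: over genes with an average of both fitted means of at least 10 it was 0.21 for 38 members and 0.68 for all 4538 such genes, whereas the values with at least 10 in each genotype were 0.20 and -0.38. The number of members with reads in 1 genotype, 13, was 13 with a wider tolerance and 16 with means below 1 counted as without reads. No paired analysis was possible because the deposited values hold no spread between libraries, and leaving out each library was not run for the same reason. The depth in reads is unknown, so its part in the precision was not tested. The smallest standard error among the members was 2.28 on the log2 scale.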

Other observations

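The authors' deposited table gives each gene a mean over all libraries modelled. It was compared with the average of the 2 fitted means. The median ratio was 0.236 over all genes, so a ratio of 1 is not the usual value. Which libraries the model held is not given in the sources used here. Among the 42 members with reads in at least 1 genotype, the ratio exceeded 1 for 3 genes, Cdh20 (17.0), Itga4 (7.97) and Itga1 (1.49), all chosen after their values were seen. Over all 5846 such genes it exceeded 1 for 938 genes. At the low end, Cdh11 had 0.133, and Krt18, Krt23, Cldn7, Cdh6 and Pkp1 had 0.134. Vil1 (0.698) and Ctnnd1 (0.686) had high ratios among the measured members, and the source of that was not tested.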
